A study of Mus musculus with 10 samples.

Results

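The liver makes cholesterol, hands it to lipoproteins and bile, and stores it as esters. Described here are 30 mouse genes of those steps: 4 regulators, 19 enzymes of synthesis, 1 sterol carrier, 4 efflux transporters and 2 enzymes of esterification. They form a list of pathway genes given by name, and each was matched to array probes through the probe's transcript accession. A named probe was found for 29 of the 30, and all 29 were among the 15088 genes tested. No probe was named for Acat2, the thiolase that starts the pathway, so it has no value here.

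Liver RNA came from 2 groups of male C57BL/6J mice, an inbred wild-type strain, bought at 7 weeks of age. Mice of the HFD ethanol group were kept on a 60% high-fat diet for 4 months. For the final 3 of these their drinking water held ethanol, with a daily intake of 5 g/kg in week 1 and of 10 g/kg from then on. The HFD control group had the same diet over the same 4 months with no ethanol, so the obesity-inducing diet is shared and no lean group enters. RNA of 5 mice of each group was measured on 1-colour Agilent arrays, 1 mouse per array, and n = 5 per group counts animals. Values are log2 of the background-subtracted signal relative to the 75th percentile of the array, so that 0 is a signal equal to that percentile and 1 unit is a 2-fold step. They compare mice for 1 gene and not genes with each other.

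On each array 55.5% to 59.1% of spots gave a signal well above background, no spot was saturated, and the probes of the 29 genes were well above background on all 10 arrays. With 10 arrays, their number sets the precision that can be had. All 7 hepatocyte markers listed were measured, as were 7 of 7 macrophage, 6 of 6 stellate, 6 of 6 endothelial, 3 of 5 cholangiocyte and 5 of 6 lymphocyte markers. In bulk tissue, fewer cells of a type and less RNA per cell cannot be told apart.

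Cells adjust cholesterol synthesis to the sterol content of the endoplasmic reticulum. When sterols are low, SCAP carries the transcription factor SREBP2, the product of Srebf2, to the Golgi, where it is cleaved and released to the nucleus to switch on nearly every gene of the mevalonate and sterol pathway. When sterols are plentiful, INSIG proteins hold SCAP back, and oxysterols activate the liver X receptors, which switch on the efflux transporters Abca1, Abcg1, Abcg5 and Abcg8.

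None of the 29 genes differed between HFD ethanol and HFD control livers at an adjusted p under 0.05 in limma, with p-values adjusted over all 15088 genes. The share of all genes past that threshold was 0.0199%, with 0.0133% higher and 0.00663% lower. At an unadjusted limma p under 0.05 there were 2 of the 29, both higher with ethanol, against 13.3% of all genes in either direction 7.97% in the higher direction and 5.3% in the lower. The fold change was positive for 24 of the 29 genes, or 82.8%, against 56.4% of all genes, and under quantile normalization for 21 of the 29, against 46.3% of all genes. Their median log2 fold change was 0.20, against 0.03 over all genes. That median moved with single ethanol mice, to 0.06 without mouse 1, 0.33 without mouse 2, 0.47 without mouse 3 and -0.0042 without mouse 5, where 14 of the 29 were higher. In no gene of the 29 did the 2 groups lie apart without overlap, as they did in 1.94% of all genes with ethanol higher and in 1.11% with ethanol lower.

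**Figure D1:**
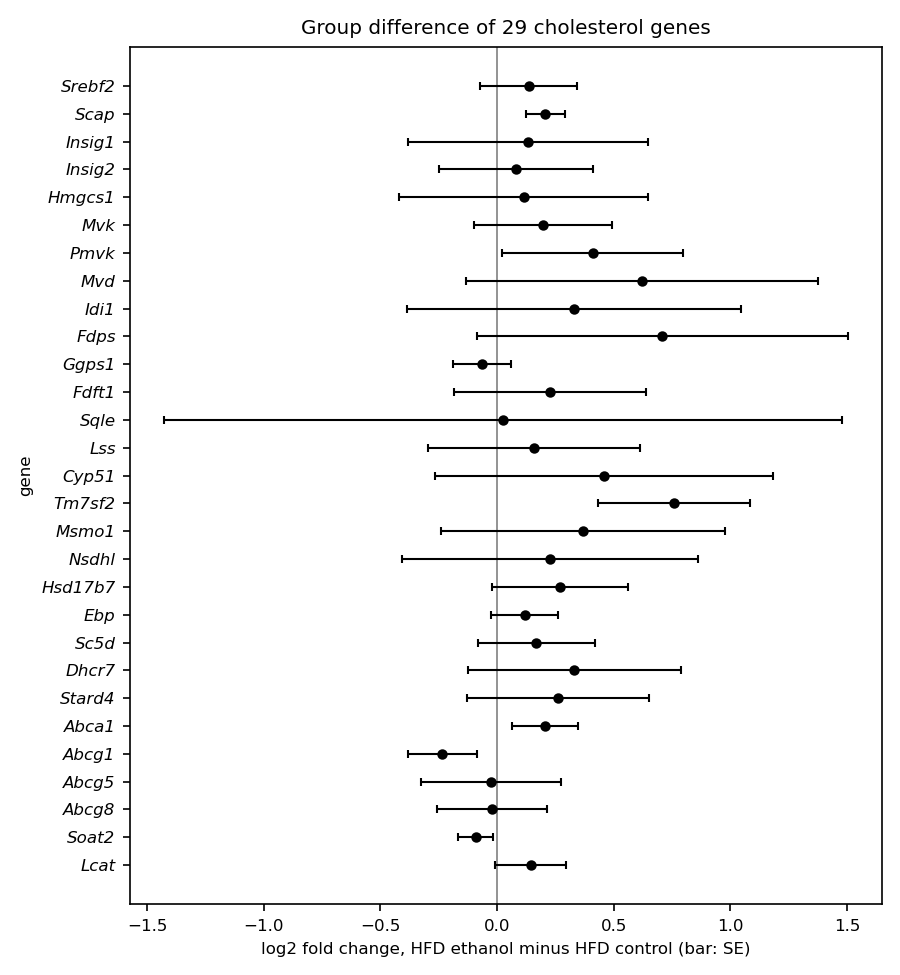
Log2 fold change of the 29 measured genes, HFD ethanol minus HFD control, on the horizontal axis, with 1 gene per row and bars of 1 moderated standard error (n = 5 mice per group). The widest bar is that of Sqle, 1.45 on either side of 0.03, and the values run from -0.23 for Abcg1 to 0.76 for Tm7sf2.

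The 5 ethanol mice differed widely from each other in the synthesis genes. The 18 measured synthesis enzymes, each taken relative to its mean over the 10 mice and then averaged, stood at 0.96, -0.76, -1.32, 0.31 and 1.56 in ethanol mice 1 to 5, against 0.09, -0.15, -0.54, 0.42 and -0.57 in control mice 1 to 5. Ethanol mice 5 and 1 lay above all controls in this average, ethanol mice 3 and 2 below all of them, and ethanol mouse 4 within their range. The group means were 0.15 ± 1.19 in ethanol and -0.15 ± 0.42 in control livers (SD, n = 5 each), a gap smaller than the spread of either group. Ethanol mouse 5 had the highest value of all 10 mice for 16 of the 18 enzymes, and ethanol mouse 3 had the lowest for 15. Among the controls, mouse 4 was the highest for 16 of the 18, and the lowest was mouse 5 for 9 and mouse 3 for 8.

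**Figure D2:**
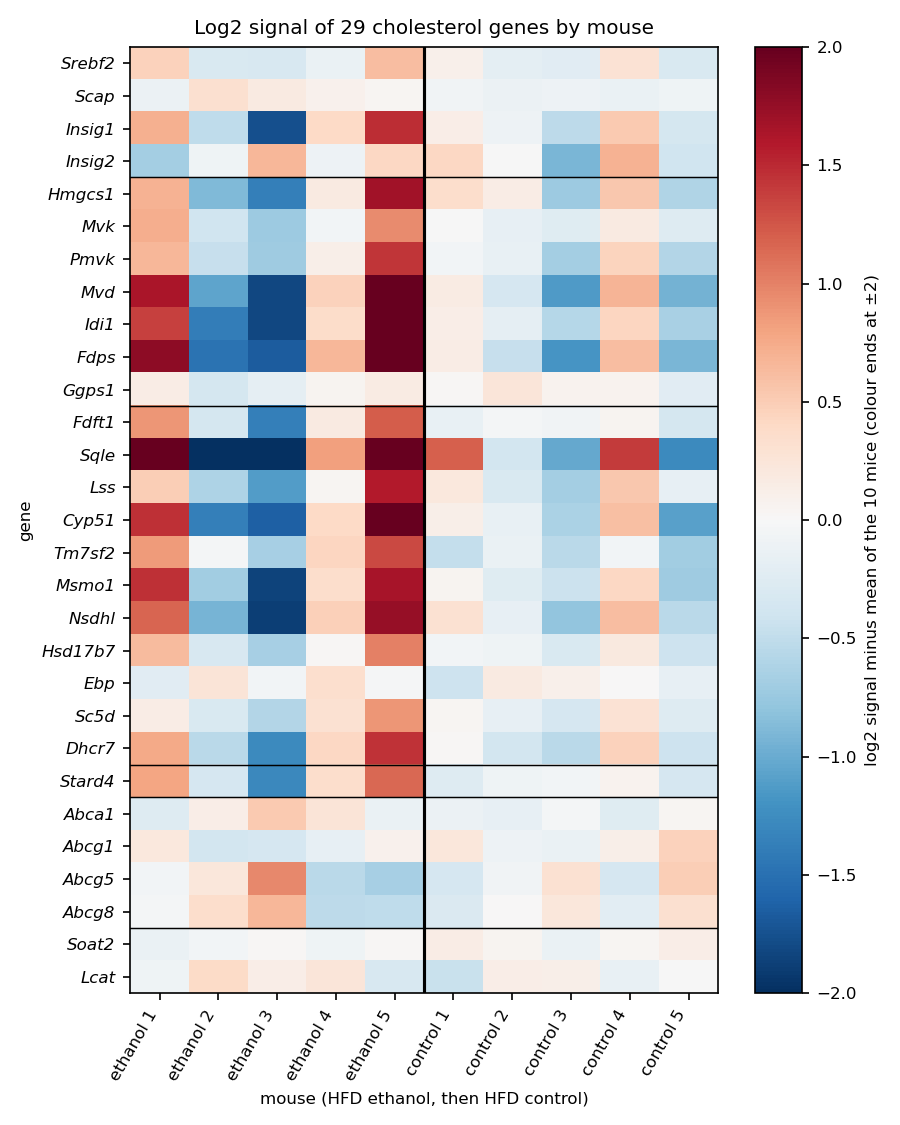
Log2 signal of each of the 29 genes (rows, grouped from regulators to esterification) in each mouse (columns, HFD ethanol left of HFD control), minus the mean of the 10 mice. Colours end at 2 units on either side. Ethanol mice 1 and 5 are red and ethanol mice 2 and 3 blue over nearly all synthesis rows, and the controls are paler.

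The order of the mice was nearly the same from enzyme to enzyme. With the group means removed, the level of an enzyme was correlated over the 10 arrays with the mean of the other synthesis enzymes at r above 0.8 for 16 of the 18, against 6.24% of all genes. These correlations are a description over arrays that share processing and slides, and the slides hold too few arrays for a value within each. The highest were 0.995 for Mvd (rho 0.99) and 0.99 for Idi1, Nsdhl, Cyp51 and Sqle. The exceptions were Ggps1 at 0.75 and Ebp at -0.23. Without ethanol mice 3 and 5, the ones farthest from the median, Mvd was still at 0.99 and Sqle at 0.98.

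Because these genes varied together, the start regions of 5 of them are printed here, 250 bases before to 50 bases after the transcription start, in the direction of the gene, from RefSeq on GRCm38.p6. Mvd, Nsdhl and Hmgcs1 stand for the enzymes and Insig1 for the regulators that varied with them, and Abcg5 varied in the opposite order. Capitals mark the motif CCAAT, which the factor NF-Y binds beside SREBP sites, and the core TCACNCCAC of a sterol response element, each on either strand, so that CCAAT also reads ATTGG. The regions are chr13:119690101-119690400 (plus strand) for Hmgcs1, chr8:122443373-122443672 (minus) for Mvd, chrX:72918271-72918570 (plus) for Nsdhl, chr5:28071162-28071461 (plus) for Insig1 and chr17:84682962-84683261 (minus) for Abcg5.
Hmgcs1: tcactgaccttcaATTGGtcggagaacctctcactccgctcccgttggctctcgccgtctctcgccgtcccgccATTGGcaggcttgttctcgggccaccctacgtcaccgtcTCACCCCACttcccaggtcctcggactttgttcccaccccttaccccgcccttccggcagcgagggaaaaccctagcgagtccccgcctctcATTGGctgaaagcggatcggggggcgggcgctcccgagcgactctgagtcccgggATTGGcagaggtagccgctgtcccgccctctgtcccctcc
Mvd: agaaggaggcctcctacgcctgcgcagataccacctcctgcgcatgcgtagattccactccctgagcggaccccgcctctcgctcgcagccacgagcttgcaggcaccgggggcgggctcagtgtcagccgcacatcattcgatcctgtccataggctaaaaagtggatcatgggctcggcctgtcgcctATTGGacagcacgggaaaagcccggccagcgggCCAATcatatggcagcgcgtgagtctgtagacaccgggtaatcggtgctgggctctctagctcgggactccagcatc
Nsdhl: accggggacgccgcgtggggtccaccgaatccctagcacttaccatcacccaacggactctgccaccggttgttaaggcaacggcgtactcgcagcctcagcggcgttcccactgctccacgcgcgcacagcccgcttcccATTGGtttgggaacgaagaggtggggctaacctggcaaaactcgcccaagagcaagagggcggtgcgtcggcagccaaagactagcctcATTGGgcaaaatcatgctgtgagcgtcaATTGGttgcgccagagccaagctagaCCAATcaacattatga
Insig1: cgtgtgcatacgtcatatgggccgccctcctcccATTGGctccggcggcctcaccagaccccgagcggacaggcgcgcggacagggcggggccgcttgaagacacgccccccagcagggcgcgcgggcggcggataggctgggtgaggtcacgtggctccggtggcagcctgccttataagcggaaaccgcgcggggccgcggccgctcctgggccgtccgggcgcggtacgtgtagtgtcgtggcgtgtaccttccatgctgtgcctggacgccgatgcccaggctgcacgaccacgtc
Abcg5: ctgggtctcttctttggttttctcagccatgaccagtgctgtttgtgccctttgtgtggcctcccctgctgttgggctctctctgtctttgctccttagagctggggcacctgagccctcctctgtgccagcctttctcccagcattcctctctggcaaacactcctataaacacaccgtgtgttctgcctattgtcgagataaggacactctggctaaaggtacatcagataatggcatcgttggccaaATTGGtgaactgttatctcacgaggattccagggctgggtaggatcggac

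A promoter of this table was found for 24 of the 30 genes, 16 of them synthesis enzymes. CCAAT occurred in 21 of the 24 and in 15 of the 16 enzymes, with genes that have several promoters counted once, against 41.1% of the 27025 genes with a promoter in the table. The enzyme without it was Acat2, which has no expression value here. Ebp and Ggps1, the enzymes outside the common mouse order, had it too. The GC box GGGCGG, which the factor SP1 binds, occurred in 19 of the 24 and in 14 of the 16, against 38.2% of genes. Both strands were searched, and none of the motifs contains another. The exact core TCACNCCAC was found for Hmgcs1 alone among the 24, against 1.44% of genes. The direct repeat that liver X receptors bind, searched as an exact match, occurred in 0 of the 24, against 0.0148% of genes. These are matches of letters within 300 bases and say nothing of where a factor was bound.

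Srebf2, which encodes SREBP2, had log2 signals of -1.55, -2.32, -2.33, -2.15 and -1.39 in ethanol mice 1 to 5, against -1.91, -2.22, -2.24, -1.73 and -2.32 in control mice 1 to 5. Ethanol mice 1 and 5 were above all controls and mice 2 and 3 just below them. The log2 fold change was 0.13 ± 0.21 (SE), with a limma adjusted p of 0.795. Srebf2 followed the synthesis enzymes over the mice (r = 0.92, rho 0.96). It spanned 1.92-fold among ethanol mice, where the median enzyme spanned 6.54-fold.

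Insig1, itself a target of SREBP2 and one of its brakes, ran through 0.57, -0.65, -1.90, 0.26 and 1.32 in ethanol mice 1 to 5, against -0.02, -0.25, -0.67, 0.37 and -0.49 in control mice 1 to 5. The ethanol mice spanned 9.32-fold and the control mice 2.05-fold, in the mouse order of the enzymes (r = 0.98, rho 0.98). The log2 fold change was 0.13 ± 0.52 (SE, limma adjusted p of 0.929).

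Insig2, the second INSIG gene, did not share that order among the ethanol mice, where mouse 3 was the highest and mouse 1 the lowest. It had 4.73, 5.33, 6.08, 5.32 and 5.82 in ethanol mice 1 to 5, against 5.83, 5.41, 4.51, 6.11 and 5.03 in control mice 1 to 5, so every ethanol value lay inside the control range. Over all 10 mice its correlation with the synthesis enzymes was 0.03 (rho 0.09). In the control mice alone Insig2 ran much as the enzymes did, highest in mouse 4, then 1 and 2, with mice 3 and 5 lowest. Its spread was 0.52 in ethanol and 0.64 in control livers (SD, n = 5 each), the reverse of the spread of Insig1. The log2 fold change was 0.08 ± 0.33 (SE, limma adjusted p of 0.931), and of its other kept probes 1 gave 0.01 and the other -0.0016.

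Scap, the SREBP escort, had 4.08, 4.52, 4.38, 4.29 and 4.24 in ethanol mice 1 to 5, against 4.12, 4.08, 4.10, 4.07 and 4.10 in control mice 1 to 5. The 5 controls were nearly equal, with an SD of 0.02, and all ethanol mice but mouse 1 stood above them. Between groups the log2 fold change of 0.21 ± 0.08 (SE), 1.15-fold, had an unadjusted limma p of 0.0329 and an adjusted p of 0.338. Over the mice Scap went against the synthesis enzymes (r = -0.72, rho -0.85), with ethanol mouse 2 highest and mouse 1 lowest of its group.

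**Figure D3:**
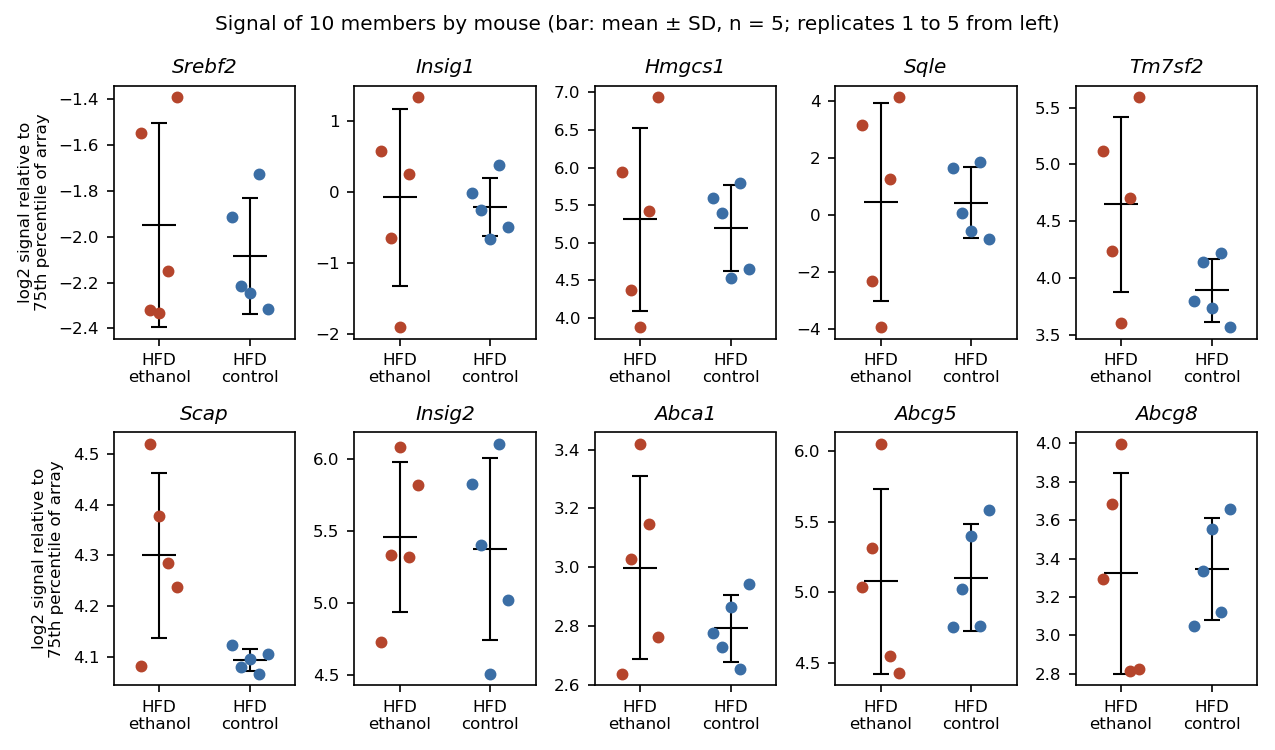
Signal of 10 genes in each mouse as log2 over the 75th percentile of its array (vertical axis, own scale in each panel), HFD ethanol left of HFD control, with mean and SD (n = 5). Replicates 1 to 5 run from left to right within a group. Scap and Tm7sf2 are the panels where 4 of 5 ethanol mice lie above all controls, and in Sqle and Insig1 the ethanol points reach far above and below the controls.

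The first enzymes carry acetyl units to mevalonate and on to the isoprenoid diphosphates. Mvd, mevalonate diphosphate decarboxylase, had 0.53, -2.16, -2.92, -0.65 and 1.25 in ethanol mice 1 to 5, against -0.94, -1.43, -2.23, -0.42 and -2.04 in control mice 1 to 5. The ethanol mice spanned 18.0-fold, with mice 1 and 5 above and mouse 3 below all controls, and the control mice spanned 3.50-fold. Between groups the log2 fold change was 0.62 ± 0.75 (SE, limma adjusted p of 0.731).

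Fdps, which makes farnesyl diphosphate, had 5.90, 2.64, 2.45, 4.78 and 6.58 in ethanol mice 1 to 5, against 4.27, 3.66, 2.93, 4.74 and 3.21 in control mice 1 to 5. Ethanol mice 1, 4 and 5 were above all controls and mice 2 and 3 below all of them, mouse 4 by a narrow margin. Between groups the log2 fold change was 0.71 ± 0.80 (SE, limma adjusted p of 0.708).

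Pmvk, phosphomevalonate kinase, had 4.19, 3.07, 2.81, 3.64 and 4.96 in ethanol mice 1 to 5, against 3.48, 3.38, 2.85, 3.97 and 2.94 in control mice 1 to 5. Here only ethanol mouse 3 lay below the controls, and the log2 fold change was 0.41 ± 0.39 (SE, limma adjusted p of 0.65). Idi1, the isopentenyl diphosphate isomerase, spanned 17.1-fold among ethanol mice and 2.10-fold among control mice, around a log2 fold change of 0.33 ± 0.71 (SE). Hmgcs1, the cytosolic HMG-CoA synthase that feeds the committed step, spanned 8.29-fold among ethanol and 2.41-fold among control mice, around 0.11 ± 0.53 (SE). Mvk, mevalonate kinase, spanned 3.16-fold among ethanol and 1.36-fold among control mice, around 0.20 ± 0.30 (SE). Ggps1 branches off the sterol line to make geranylgeranyl diphosphate for protein prenylation. It spanned only 1.44-fold among ethanol mice and 1.38-fold among control mice, around -0.06 ± 0.12 (SE), and its 5 probes disagreed in sign.

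The steps from squalene onward commit the carbon to sterols. Sqle, squalene epoxidase, often a slow step of the pathway, had 3.14, -2.31, -3.92, 1.26 and 4.12 in ethanol mice 1 to 5, against 1.64, 0.08, -0.57, 1.84 and -0.83 in control mice 1 to 5. The extreme ethanol mice differed by 264-fold and the extreme control mice by 6.39-fold. Its pooled SD within groups was at the 99.99th percentile of all genes tested. With that spread the log2 fold change was 0.03 ± 1.45 (SE, limma adjusted p of 0.995), and a group difference of a few fold was not detectable with 5 mice. The Sqle values rest on 1 kept probe. With another background correction (normexp) the log2 fold change was 0.42 ± 1.08 (SE), so the size of the spread depends in part on that step.

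Tm7sf2, a sterol reductase of the steps after lanosterol, had 5.12, 4.24, 3.60, 4.70 and 5.59 in ethanol mice 1 to 5, against 3.79, 4.14, 3.73, 4.22 and 3.57 in control mice 1 to 5. All ethanol mice but mouse 3 were above the highest control, mouse 2 by a narrow margin. Its fold change, the largest of the 29 in this fit, was 1.69-fold or 0.76 ± 0.33 on the log2 scale (SE), with an unadjusted limma p of 0.042 and an adjusted p of 0.362. A second probe gave 0.71.

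Hsd17b7, a keto-sterol reductase, had 3.68, 2.73, 2.38, 3.07 and 4.05 in ethanol mice 1 to 5, against 2.99, 2.95, 2.74, 3.25 and 2.63 in control mice 1 to 5. Ethanol mice 1 and 5 were above all controls and mouse 3 below, around a log2 fold change of 0.27 ± 0.29 (SE, limma adjusted p of 0.693). Fdft1, squalene synthase, spanned 5.96-fold among ethanol mice but 1.33-fold among control mice, around 0.23 ± 0.41 (SE). Lss, lanosterol synthase, spanned 6.49-fold among ethanol and 2.31-fold among control mice, around 0.16 ± 0.45 (SE).

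Cyp51, the lanosterol demethylase, spanned 15.0-fold among ethanol mice and 3.23-fold among control mice, around a log2 fold change of 0.46 ± 0.72 (SE). Next to it in the pathway, Msmo1, the methylsterol monooxygenase, spanned 11.3-fold among ethanol and 2.20-fold among control mice, around 0.37 ± 0.61 (SE), and Nsdhl, the decarboxylating sterol dehydrogenase, 12.2-fold among ethanol and 2.67-fold among control mice, around 0.23 ± 0.63 (SE). Toward the end of the pathway, Sc5d, a sterol desaturase, spanned 2.76-fold among ethanol and 1.54-fold among control mice, around 0.17 ± 0.25 (SE). Dhcr7, which makes cholesterol in the last step of one branch, spanned 6.59-fold among ethanol and 2.00-fold among control mice, around 0.33 ± 0.46 (SE).

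Ebp, the sterol isomerase, stood outside the pattern: it spanned 1.48-fold among ethanol mice and 1.52-fold among control mice, around 0.12 ± 0.14 (SE), and was highest in ethanol mouse 4. Adjusted p-values in limma ran from 0.362 to 0.995 over the 18 enzymes, and 17 of the 18 had a positive fold change, Ggps1 being the exception, while under quantile normalization Sqle and Ebp were also slightly negative. The median log2 fold change was 0.25, and it was 0.10 without ethanol mouse 1, 0.50 without ethanol mouse 2, 0.67 without ethanol mouse 3, -0.02 without ethanol mouse 5 and 0.40 without control mouse 4. In 15 of the 18 enzymes some ethanol mouse lay above all controls and another below all of them. The share of all genes with this trait is not given here. Since the enzymes varied together, the count rests on the same few mice.

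Stard4, a carrier that moves cholesterol through the cytosol and a target of SREBP2, varied with the enzymes (r = 0.94, rho 0.89). It ranged from 0.75 in ethanol mouse 3 to 3.19 in ethanol mouse 5, with a median of 2.39, against 1.71 to 2.11 with a median of 1.95 in control mice. The ethanol mice spanned 5.41-fold and the control mice 1.32-fold, around a log2 fold change of 0.26 ± 0.39 (SE, limma adjusted p of 0.786).

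Of the 4 efflux transporters, 3 followed the opposite mouse order. Abca1, which loads cholesterol onto lipid-poor apolipoproteins, had 2.64, 3.03, 3.42, 3.15 and 2.76 in ethanol mice 1 to 5, against 2.78, 2.73, 2.86, 2.65 and 2.94 in control mice 1 to 5. Ethanol mouse 3, the lowest in synthesis, was the highest, and ethanol mouse 1 the lowest. Its log2 fold change was 0.21 ± 0.14 (SE, limma adjusted p of 0.516).

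Abcg5 and Abcg8 form the pump that secretes cholesterol into bile. Abcg5 had 5.04, 5.31, 6.05, 4.55 and 4.43 in ethanol mice 1 to 5, against 4.75, 5.02, 5.40, 4.76 and 5.58 in control mice 1 to 5. Abcg8 had 3.29, 3.68, 4.00, 2.82 and 2.83 in ethanol mice 1 to 5, against 3.05, 3.34, 3.55, 3.12 and 3.66 in control mice 1 to 5. Both were highest of all mice in ethanol mouse 3, and ethanol mice 4 and 5 were below all controls. Their log2 fold changes were -0.03 ± 0.30 for Abcg5 and -0.02 ± 0.24 for Abcg8 (SE, limma adjusted p of 0.975 for each).

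The correlation with the synthesis enzymes over the 10 mice was -0.85 for Abca1 (rho -0.84), -0.86 for Abcg5 (rho -0.79) and -0.86 for Abcg8 (rho -0.83). These 3 were the genes of the 29 at r below -0.8, where 3.88% of all genes lay. Without ethanol mice 3 and 5 the values were -0.70, -0.66 and -0.69, so the relation is looser among the other 8 mice.

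Abcg1, which passes cholesterol to high-density lipoprotein and is much expressed in macrophages, did not go with them. It had 0.98, 0.40, 0.44, 0.61 and 0.86 in ethanol mice 1 to 5, against 1.00, 0.68, 0.65, 0.89 and 1.23 in control mice 1 to 5. Ethanol mice 2, 3 and 4 lay below all controls. Its log2 fold change was -0.23 ± 0.15 (SE, limma adjusted p of 0.492), and r with the synthesis enzymes was 0.60 (rho 0.59). The mean of the 7 macrophage markers, relative to its 10-mouse level, ran from -0.51 to 0.54 in ethanol and from -0.38 to 0.48 in control mice, and its part in the Abcg1 values was not tested.

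**Figure D4:**
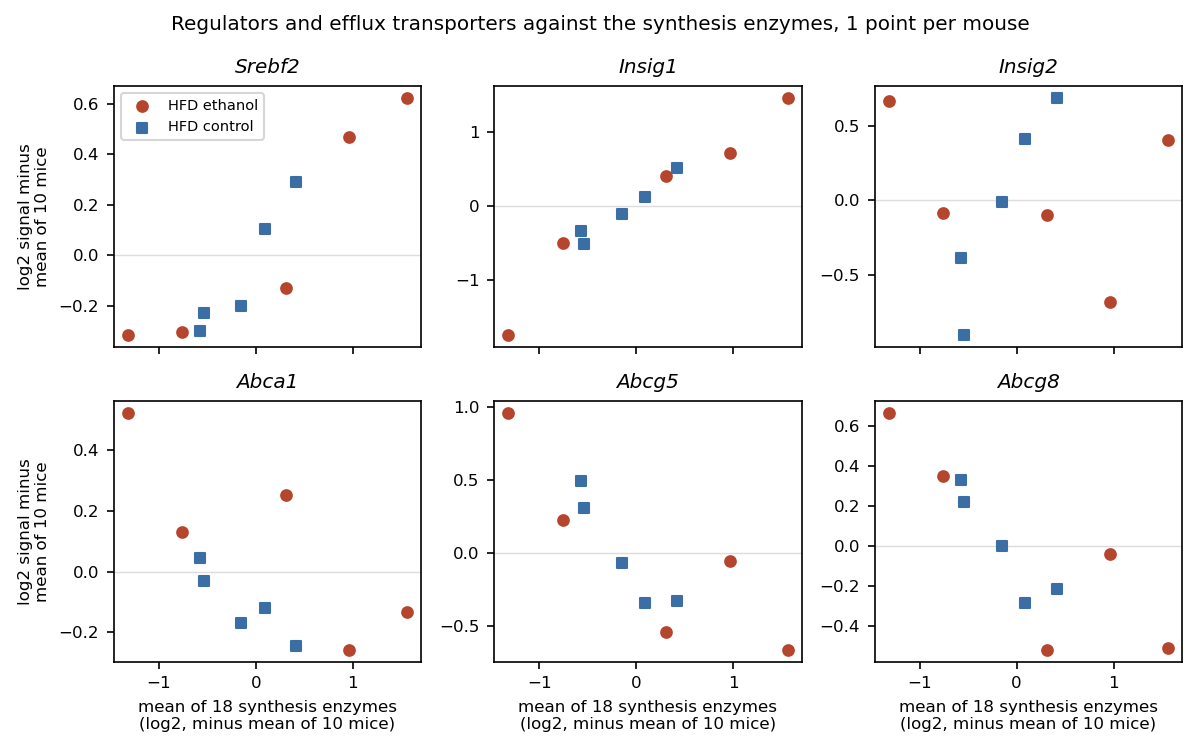
Log2 signal of 6 genes minus the mean of the 10 mice (vertical axes) against the mean of the 18 synthesis enzymes in the same mouse (horizontal axis), with HFD ethanol as circles and HFD control as squares. Srebf2 and Insig1 climb with the enzymes, and Abca1, Abcg5 and Abcg8 descend. Insig2 shows no slope common to both groups (r = 0.03 with the group means removed), though it climbs among the control mice.

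Of these groups of genes, esterification had the smallest median pooled SD, 0.18, against 0.81 for the synthesis enzymes. Soat2, the enzyme that stores cholesterol as esters in hepatocytes, had 2.69, 2.78, 2.86, 2.74 and 2.85 in ethanol mice 1 to 5, against 2.97, 2.88, 2.69, 2.87 and 2.96 in control mice 1 to 5. The ethanol values were all below the control mean, and the log2 fold change was -0.09 ± 0.07 (SE, limma adjusted p of 0.596). Lcat, which the liver secretes to esterify cholesterol in plasma, had 4.37, 4.84, 4.58, 4.69 and 4.13 in ethanol mice 1 to 5, against 4.01, 4.59, 4.56, 4.30 and 4.44 in control mice 1 to 5. Its groups overlapped, with a log2 fold change of 0.14 ± 0.15 (SE, limma adjusted p of 0.687) and r = -0.68 with the synthesis enzymes (rho -0.70).

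The spread within groups was set against that of all genes. The pooled SD was above the 90th percentile of all genes tested for 19 of the 29 genes and above the median for 26. The SD over ethanol mice exceeded that over control mice in 26 of the 29, against 59.4% of all genes, and exceeded it more than 2-fold in 19 of the 29, against 18.0% of all genes. Since the enzymes moved together, these counts rest on the same few mice. The distance of each mouse from its group median was compared between groups for 7 genes with a two-sided exact permutation test (252 splits), the regulators Srebf2, Insig1 and Insig2, the enzyme Sqle and the efflux genes Abca1, Abcg5 and Abcg8. The p was 0.0952 for Sqle, 0.135 for Abca1, 0.151 for Insig1, 0.175 for Abcg8, 0.373 for Srebf2, 0.381 for Abcg5 and 0.643 for Insig2. None of the 7 was under 0.05 before any adjustment, so the wider spread in ethanol livers was not shown for any of these 7 genes taken singly.

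**Figure D5:**
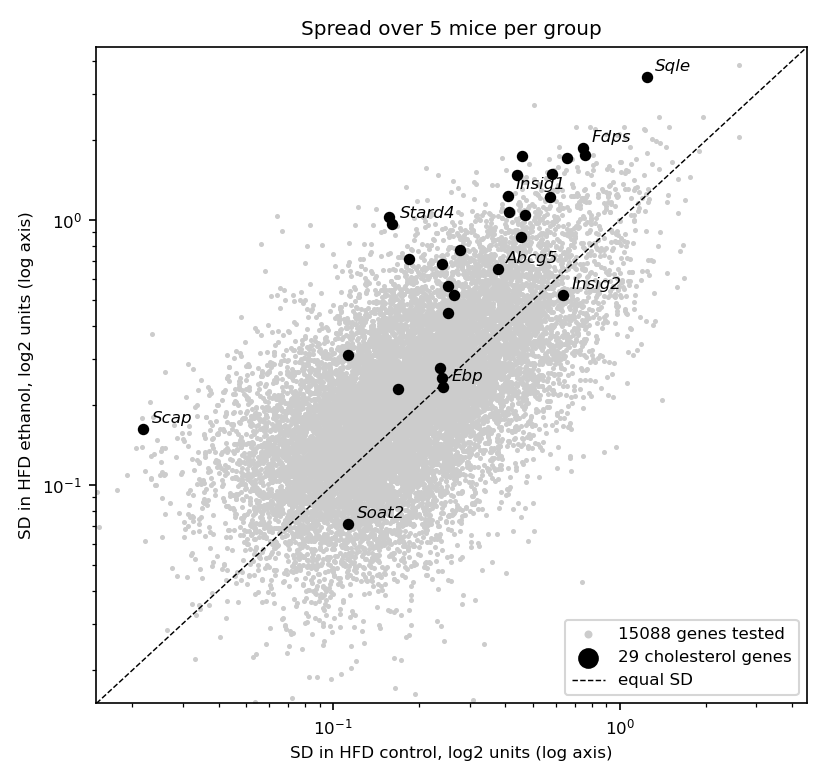
SD over the 5 HFD ethanol mice (vertical) against SD over the 5 HFD control mice (horizontal) for the 15088 genes tested (grey) and the 29 cholesterol genes (black), on log axes in log2 units, with the line of equal SD. Of the black points 26 lie above the line, with Sqle farthest to the upper right. Insig2, Ebp and Soat2 lie below it.

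Position on the slides moved with part of this pattern. Ethanol mice 1, 2, 3 and 5, which include the highest and the lowest in synthesis, shared slide 3 with control mouse 2, so the ethanol spread also stands within 1 slide. The arrays in column 1 of the slides were those of ethanol mice 2 and 3, both low in synthesis. Without them the median log2 fold change was 0.79 over the 29 genes and 0.99 over the synthesis enzymes, with adjusted p of 0.36 for Sqle and 0.152 for Tm7sf2 in limma, and 16 of the 29 genes had an unadjusted limma p under 0.05, against 10.8% of all genes. Of the 29, 0 passed the adjusted threshold and 7 had an SD ratio above 2, against 10.9% of all genes. No control array lay in that column, so column and mouse cannot be told apart. Column 4 held only arrays of control mice 1, 4 and 5, and slide 2 only those of control mice 1 and 3. Position was thus tied in part to group. With the column as a covariate and all arrays kept, the median log2 fold change was 0.73 over the 29 genes and 0.96 over the synthesis enzymes. In that fit 2 of the 29 had an unadjusted limma p under 0.05, against 5.74% of all genes, and 0 passed the adjusted threshold.

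The mean of the 7 hepatocyte markers, relative to its 10-mouse level, was -0.45, 0.28, 0.23, 0.17 and -0.20 in ethanol mice 1 to 5, and ran from -0.25 to 0.19 in control mice. The markers did not share 1 order. Cps1, Tat and Hnf4a were lower in ethanol mice 1 and 5 than in the other ethanol mice. Alb, Ttr, Apoa1 and Serpina1a were instead highest of the ethanol mice in mouse 5, the highest in synthesis. Cps1, a urea cycle enzyme named after its values were seen, was at 0.90, 3.67, 3.52, 2.65 and 1.30 in ethanol mice 1 to 5, against 1.97 to 3.02 in control mice. The mean of the stellate cell markers ran from -0.36 to 0.10 in ethanol mice and from -0.14 to 0.33 in control mice, and that of the endothelial markers from -0.07 to 0.13 in ethanol mice and from -0.18 to 0.20 in control mice. Of the 6 stellate markers 5 were lower with ethanol, 3 at an unadjusted limma p under 0.05, and 1 was higher. All 3 measured cholangiocyte markers were lower, 1 at such a p, as were 5.3% of all genes. Among these markers 0 passed the adjusted threshold. The cholangiocyte mean was 0.13, -0.80, -0.77, -0.75 and 0.41 in ethanol mice 1 to 5, against 0.93, 0.02, -0.07, 0.82 and 0.08 in control mice 1 to 5. The lymphocyte mean was -0.02, -0.25, -0.36, 0.09 and 0.32 in ethanol mice 1 to 5, against -0.05, 0.17, -0.09, 0.09 and 0.09 in control mice 1 to 5. Both were highest in ethanol mouse 5 of the ethanol mice and low in ethanol mice 2 and 3, as synthesis was. The cholangiocyte mean, over 3 markers, was also low in ethanol mouse 4 (-0.75), where the mean of the synthesis enzymes was 0.31. The part of these markers in the cholesterol genes was not tested.

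Genes outside the 30 that followed the synthesis enzymes most closely over the 10 arrays, with the group means removed, were Zfp608, Kirrel3, Gas6, Arl2bp, Prdx3, Fads1, Rdh11, Nudt2 and Mmab, at r between 0.97 and 0.99. Fads1, a fatty acid desaturase, and Rdh11, a retinol dehydrogenase, also stood on a list of 9 other genes that respond to SREBP2. Of those 9, 6 were higher with ethanol, where 56.4% of all genes were, and 0 passed the threshold in limma. Their median log2 fold change was 0.27, against 0.03 over all genes.

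The smallest p-values on that list were those of Acly, which makes cytosolic acetyl-CoA, and Aacs, which activates acetoacetate. Acly had 5.55, 4.85, 4.65, 6.32 and 7.27 in ethanol mice 1 to 5, against 4.09, 3.94, 3.90, 4.81 and 3.91 in control mice 1 to 5. All ethanol mice but mouse 3 were above the highest control, and the log2 fold change was 1.60 ± 0.46 (SE, limma adjusted p of 0.232). Aacs was at 0.75 ± 0.33 (SE, limma adjusted p of 0.363).

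No gene of the other pathway lists passed the threshold in limma. The counts of higher genes below stand beside 56.4% of all genes that were higher, and the medians beside 0.03 over all genes. Of 9 liver X receptor genes and targets, 6 were higher, with a median log2 fold change of 0.13. The smallest p-values were those of Lpcat3, a phospholipid remodelling enzyme, at 0.32 ± 0.09, and Arl4c at 0.15 ± 0.07 (SE). Of 13 other genes of sterol handling, 5 were higher, with a median of -0.11. Gramd1c, a sterol transfer protein, was at 0.22 ± 0.09 and Scarb1, the receptor for high-density lipoprotein, at -0.37 ± 0.17 (SE). Of 7 genes of SREBP cleavage and INSIG or reductase degradation, 4 were higher, with a median of 0.01. Erlin2 was at -0.11 ± 0.08 and Rnf139 at 0.09 ± 0.08 (SE). Of 10 genes that use isoprenoids, 6 were higher, with a median of 0.04. Rabggtb was at 0.23 ± 0.12 and Nus1 at 0.13 ± 0.08 (SE).

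Feeding and time of day also set the pathway in liver, and markers of both were listed. Of 6 fasting and feeding genes 3 were higher, where 56.4% of all genes were, and 0 passed the threshold in limma. G6pc, the glucose-releasing phosphatase, was at 1.25 ± 0.49 (SE, limma adjusted p of 0.328). G6pc had 4.33, 4.64, 5.89, 5.06 and 7.32 in ethanol mice 1 to 5, against 3.89, 4.00, 4.58, 4.48 and 4.03 in control mice 1 to 5, so that mouse 5 was the highest but mouse 3 stood above mouse 1. Of 8 measured clock genes 6 were higher, beside the same 56.4% of all genes, with Nr1d2 at 0.24 ± 0.16 and Nr1d1 at -0.13 ± 0.14 (SE). The most variable of them, Ciart, had -0.78, -0.65, -5.01, -0.99 and -2.15 in ethanol mice 1 to 5, against -4.30, -2.23, -1.07, -4.98 and -0.78 in control mice 1 to 5. In the controls Ciart ran in the exact reverse of the order of the synthesis enzymes, highest in mouse 5 and lowest in mouse 4. The mean of the 8 clock genes, relative to its 10-mouse level, was 0.32, 0.51, -0.61, 0.25 and 0.11 in ethanol mice 1 to 5, against -0.43, -0.10, 0.34, -0.77 and 0.38 in control mice 1 to 5. It too was the reverse of synthesis in the controls, whereas among ethanol mice it was lowest in mouse 3, which was also lowest in synthesis. Arntl, 1 of the 8, was highest where Ciart was lowest, at -1.27 in ethanol mouse 3 and -1.20 in control mouse 4. The mean thus mixes genes of opposite order. The part of feeding or time of day in the spread of the cholesterol genes was not tested.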

How the data were processed

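Per the labels' protocols, total RNA from about 10 to 15 mg of liver was amplified and labelled with Cy3 for 1-colour arrays, and the 5 mice of each group were chosen at random from 10. The authors deposited spot intensities on a linear scale, which per the file headers came from Agilent Feature Extraction 10.7.3.1 and a design on mm9, as background-subtracted processed intensity with median signal and background. They also deposited a table on a log2 scale, whose differences between arrays match those of the scanner intensities scaled to the 75th percentile. Its column medians were 0.02, -0.0037, -0.01, -0.0020 and 0.05 for ethanol mice 1 to 5 and -0.12, 0.08, 0.02, -0.07 and -0.07 for control mice 1 to 5. The value on which it was centred is unknown and cancels in differences. The steps by which the authors made it are not given in the sources used here.

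Here, processed intensities were divided by the array's 75th percentile, which ran from 279.9 to 387.4, set to a floor of 4 signal units, and log2 was taken. Control and outlier spots were left out, and spots of 1 probe averaged. A probe was kept if well above background on at least 4 of 5 arrays of 1 group, which left 31106 of 56605. Names came from RefSeq (GRCm38.p6) through accessions. They named 32994 probes, and 23611 were unnamed. A gene with several probes is given by the probe of highest mean signal. Among the 29 genes 14 had several kept probes, of opposite sign in Ggps1 and Insig2. The comparison used limma 3.58.1 (lmFit, eBayes) under R 4.3.3, Benjamini-Hochberg adjusted over 15088 genes, a procedure tested on simulated data. SE is limma's moderated standard error.

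All 29 genes are given with their fold change. Every array is shown for the 10 with the smallest p and for Srebf2, Insig1, Insig2, Sqle, Abca1, Abcg5 and Abcg8. Of each other list the 2 genes with the smallest p are named, as are the 10 genes most like the synthesis enzymes. Of the genes so chosen, 2 are not reported here. The genes, lists and tests were chosen with earlier results of these data known. The percentile over probes and the recounts of likeness and spread were chosen after seeing the data. No 2 arrays were repeats of 1 sample.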

Additional observations from a re-analysis of the deposited data

How the results depend on the processing

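None of the 29 genes passed the threshold of limma under any of the 28 other settings run, which changed normalization, background, floor, filter, probe rule, values, blocks, variance model or arrays. The count of synthesis enzymes at r above 0.8 was recomputed under 20 of these settings and was 16 or 17. Those 20 change the values, the probe filter or the probe rule, or leave out 1 array or slide column 1. Leaving out 1 array at a time, between 14 and 25 of the 29 were higher with ethanol, the lowest without ethanol mouse 5, and the number of all genes past the threshold, 3 as reported, ran from 0 to 7. That number was 7 with normexp on median signals, 5 with a floor of 16, 0 with no filter on dim probes and 0 with the slide as a fixed block. It was 12 with the slide as a random block, 0 with the slide column as a covariate, 7 with trended robust variances and 15 with array weights. The fits within slide 1 and within slide 3, also among the 28, left 1 array in 1 group, so passing or not says little for them. Without slide column 1 the median log2 fold change over the 29 was 0.79 and 7 had an SD ratio above 2. That setting had 2 arrays fewer, those of the ethanol mice lowest in synthesis. The cause was not tested for the others.

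Same-numbered mice of the 2 groups are not stated to be pairs. Their correlations were 0.324, 0.148, 0.311, 0.0643 and -0.110, and 2 of 5 ethanol mice correlated best with the control of their own number. With a replicate block, 0 of the 29 and 0 of all genes passed the threshold.

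Log2 fold changes changed sign as follows, all without passing the threshold. Quantile normalization gave -0.034 for Insig2, -0.021 for Sqle and -0.0024 for Ebp, and normexp gave 0.018 for Abcg5. The slide gave -0.066 for Insig2 as a fixed block, and -0.13 for Sqle, 0.032 for Abcg5 and 0.046 for Abcg8 as a random block. Slide 1 alone held ethanol mouse 4 and control mice 4 and 5. It gave -0.13 for Srebf2, -0.25 for Insig2, -0.014 for Mvk, 0.14 for Ggps1 and -0.14 for Lss. Slide 3 alone held 1 control, mouse 2. It gave -0.12 for Hmgcs1, -0.20 for Ebp, 0.19 for Abcg5, 0.11 for Abcg8 and -0.10 for Lcat. The column covariate gave -0.028 for Insig2, -0.024 for Ebp, 0.040 for Abcg1 and -0.043 for Lcat. Leaving out column 1 gave -0.086 for Insig2 and 0.095 for Ggps1, and array weights gave -0.050 and 0.025 for them. Without 1 array at a time the values ran from -0.0042 to 0.23 for Srebf2, -0.22 to 0.59 for Insig1, -0.14 to 0.26 for Insig2, -0.29 to 0.47 for Hmgcs1, -0.013 to 0.40 for Mvk, -0.20 to 0.83 for Idi1, -0.13 to 0.017 for Ggps1, -0.049 to 0.60 for Fdft1, -0.89 to 1.12 for Sqle, -0.22 to 0.46 for Lss, -0.054 to 0.92 for Cyp51, -0.18 to 0.73 for Nsdhl, -0.029 to 0.34 for Sc5d, -0.27 to 0.13 for Abcg5 and -0.19 to 0.11 for Abcg8. With 5 arrays per group, differences within such spreads were not detectable.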
